A study of Mus musculus with 2 samples.

Results

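The 10 genes described here are the interleukin-1 family of cytokines and their receptors, as far as they were listed by symbol: the ligands Il1a, Il1b, Il18 and Il33, the receptor antagonist Il1rn, the receptor chains Il1r1, Il1rap and Il1rl1, the decoy receptor Il1r2, and Nlrp3, which senses cell damage. All 10 were found among the 55450 genes of the files. They were measured by single-cell RNA sequencing of EMT6 tumors in 2 libraries, each made from the tumors of 3 pooled mice. EMT6 is a line from a mouse mammary carcinoma, of which 200000 cells had been injected under the skin of BALB/c mice, which keep their own immune system. The Olaparib + LLY-283 group received LLY-283, an inhibitor of the arginine methyltransferase PRMT5, at 50 mg/kg in cycles of 3 days on and 4 days off, and the PARP inhibitor Olaparib at 50 mg/kg. The Combo group received both drugs and, in addition, 200 µg of an anti-PD-1 antibody each 3 days. Both groups therefore had both drugs, no untreated tumor was analysed here, and the antibody is the only labelled difference between the 2 libraries. With 1 library per group and no replicates, the antibody cannot be told apart from the library or its mice, and no p-value is given.

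Interleukin-1 alpha and beta are alarm signals that act on neighbouring cells through the receptor chain IL1R1 and the shared accessory chain IL1RAP. IL1RN occupies the same receptor without starting a signal, and IL1R2 captures the ligand without passing a signal on. IL-33 is stored in the nucleus of fibroblasts and barrier cells, is set free when they are damaged, and acts through ST2, the product of Il1rl1, again with IL1RAP. Interleukin-1 beta and interleukin-18 are made as precursors and cut to their active form by caspase-1, which assembles on sensors such as NLRP3. In tumors, neutrophils and macrophages are well-known sources of interleukin-1 beta.

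The Olaparib + LLY-283 library held 16115 cell barcodes, and the Combo library held 7542. Of these, 16029 and 5956 had at least 200 genes and under 20% mitochondrial UMIs and were kept, with medians of 7414 and 14413.5 UMIs per cell. A UMI (unique molecular identifier) marks 1 captured transcript. The 2 libraries stood apart in quality, since 0.534% of barcodes in Olaparib + LLY-283 and 21.0% in Combo had 20% or more mitochondrial UMIs. They shared 39 barcodes. Cells were assigned to classes from the UMIs of 89 marker genes, none of which is among the 10 genes described here. The neutrophil-like class held 567 and 1039 cells in Olaparib + LLY-283 and Combo, in that order, which holds for all pairs of values below. The macrophage-like class held 1155 and 773 cells, the fibroblast-like class 209 and 71, the dendritic-like class 58 and 36, the T/NK-like class 76 and 54, and the tumor-like class 12767 and 3073. Endothelial-like, muscle-like and osteoclast-like cells numbered 15 to 36 per library, and mast-like cells 6 in each. Cells that matched a mixture of 2 classes better than any single one, as doublets would, numbered 596 and 455 and were set apart, as were 507 and 382 uncertain cells.

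Each class carried the markers of its name among its leading genes. In the neutrophil-like class S100a9 and S100a8 led, and all 9 neutrophil markers were over 2-fold higher than in the other cells. Cells had been assigned by these same markers, so their levels follow from the rule and do not test the names. The tumor-like class had 3 of its 5 epithelial markers over 2-fold higher. Krt8 was at 796 CPM in both libraries against 284 and 170 CPM over all other classes. Epcam reached only 3.36 and 3.09 CPM, against 1.58 and 2.18 CPM over the other classes. Krt19 stood at 2.76 and 1.35 CPM against 4.21 and 0.492 CPM, so in Olaparib + LLY-283 it was lower in the tumor-like class. CPM is the number of UMIs of a gene per 1000000 UMIs of all cells of a class, and its 95% intervals below are exact Poisson intervals that cover counting error only. The classes differed in depth between the libraries, with medians of 646 and 2007 UMIs per cell in neutrophil-like, 2201 and 10035 in macrophage-like, 3790 and 19582 in fibroblast-like and 8746 and 45689 in tumor-like cells. Shares of cells with a UMI were therefore compared after each cell was thinned to 1000 UMIs, with shallower cells left out. For neutrophil-like cells 500 UMIs were used, because only 37 of 567 cells in Olaparib + LLY-283 reached 1000.

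Classes were ranked by CPM where they had at least 10 cells in each library, which left 9 classes and set the mast-like cells aside. Of the 10 genes, 7 had their highest CPM in neutrophil-like cells in both libraries: Il1a, Il1b, Il1rn, Il18, Il1rap, Il1r2 and Nlrp3. Among all 13265 genes with at least 200 UMIs, 5.16% did. Another 2, Il33 and Il1r1, were highest in fibroblast-like cells in both libraries, against 6.97% of all genes. Il1rl1 was the exception, with its highest CPM among the 9 classes in endothelial-like cells in Olaparib + LLY-283 and in tumor-like cells in Combo. Muscle-like, osteoclast-like, endothelial-like and T/NK-like cells held 0 to 59 UMIs of any of the 10 genes.

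**Figure D1:**
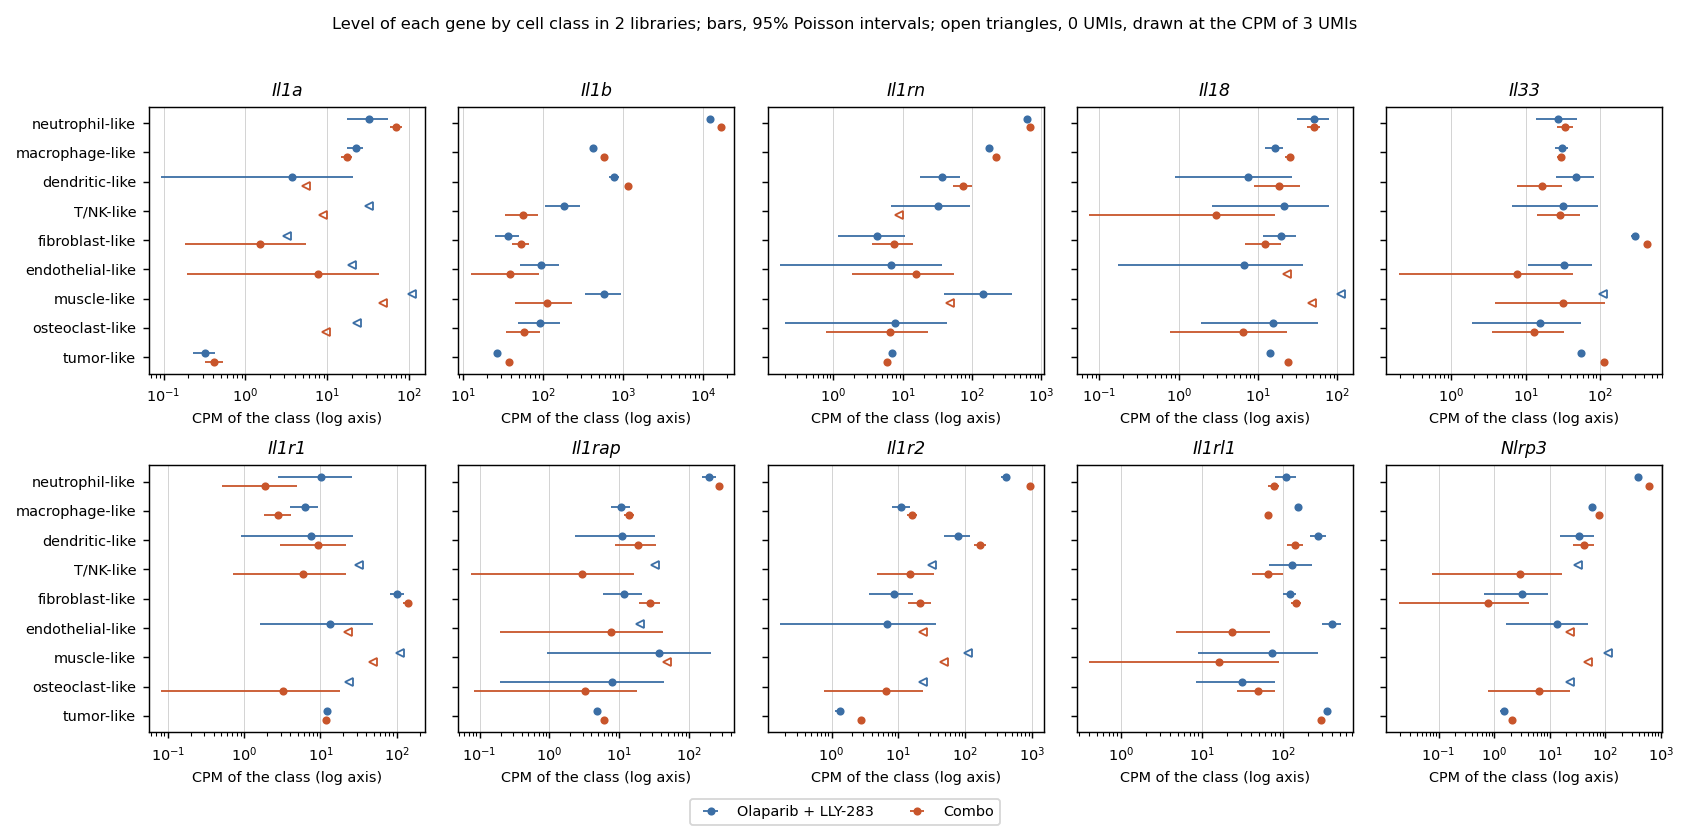
CPM (log axis) of each of the 10 genes in 9 cell classes, with 1 point per library and 95% Poisson intervals as bars. Open triangles mark classes with 0 UMIs and stand at the CPM of 3 UMIs. Il1b, Il1rn, Il1rap, Il1r2 and Nlrp3 lie farthest right in neutrophil-like cells, Il33 and Il1r1 in fibroblast-like cells, and Il1rl1 is far right in tumor-like cells.

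Il1b, which encodes the precursor of interleukin-1 beta, had the steepest gradient among the classes. In neutrophil-like cells it stood at 12386 CPM (95% interval 12042 to 12737, 4929 UMIs) in Olaparib + LLY-283 and at 17103 CPM (16927 to 17280, 36078 UMIs) in Combo. That was 15.8 and 14.9 times the level of the next class, the dendritic-like cells, with 783 and 1145 CPM. Macrophage-like cells followed with 429 CPM (408 to 451) and 579 CPM (564 to 595), and tumor-like cells had 27.1 and 37.9 CPM. After thinning to 500 UMIs, 87.9% of neutrophil-like cells in Olaparib + LLY-283 and 93.6% in Combo still had an Il1b UMI. At 1000 UMIs, which 37 and 966 of them reached, the share was 97.0% and 96.5%. In macrophage-like cells the share at 1000 UMIs was 24.4% (21.8 to 27.3%) and 27.2% (23.9 to 30.6%), and in tumor-like cells it was 2.45% and 3.82%. At 1000 UMIs, Il1b was thus detected in most neutrophil-like cells and in a minority of macrophage-like cells. Its share in tumor-like cells was lower again. Without thinning, 33.6% and 58.2% of macrophage-like cells and 15.5% and 67.5% of tumor-like cells had an Il1b UMI, at unequal depths.

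Droplets take up free RNA, so UMIs of Il1b outside neutrophils were set against those of S100a8, an abundant neutrophil gene. The part of free RNA in any level given here was not tested. Neutrophil-like cells had 35.3 (34.2 to 36.5) and 39.3 (38.8 to 39.8) Il1b UMIs per 100 S100a8 UMIs. Tumor-like cells had 47.9 (46.1 to 49.8) and 49.1 (47.6 to 50.8), above the ratio in neutrophil-like cells without overlap of the intervals, and their S100a8 was 1.37 times as high in Combo (56.5 and 77.2 CPM) where their Il1b was 1.40 times as high. Macrophage-like cells had 383 (343 to 427) and 371 (350 to 393), about the same in both libraries and far above the ratio in neutrophil-like cells. Dendritic-like cells had 102 and 215 Il1b UMIs per 100 S100a8 UMIs, and 5 of their cells held 47.9% and 41.8% of their Il1b UMIs. In macrophage-like, dendritic-like and tumor-like cells the ratio was thus above that of neutrophil-like cells in both libraries. S100a8 is among the markers that assigned cells, so its level by class, and with it this ratio, follows in part from the rule. The same holds for the ratios to Krt8, C1qa and Col3a1 below, and none of them tests a source.

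**Figure D2:**
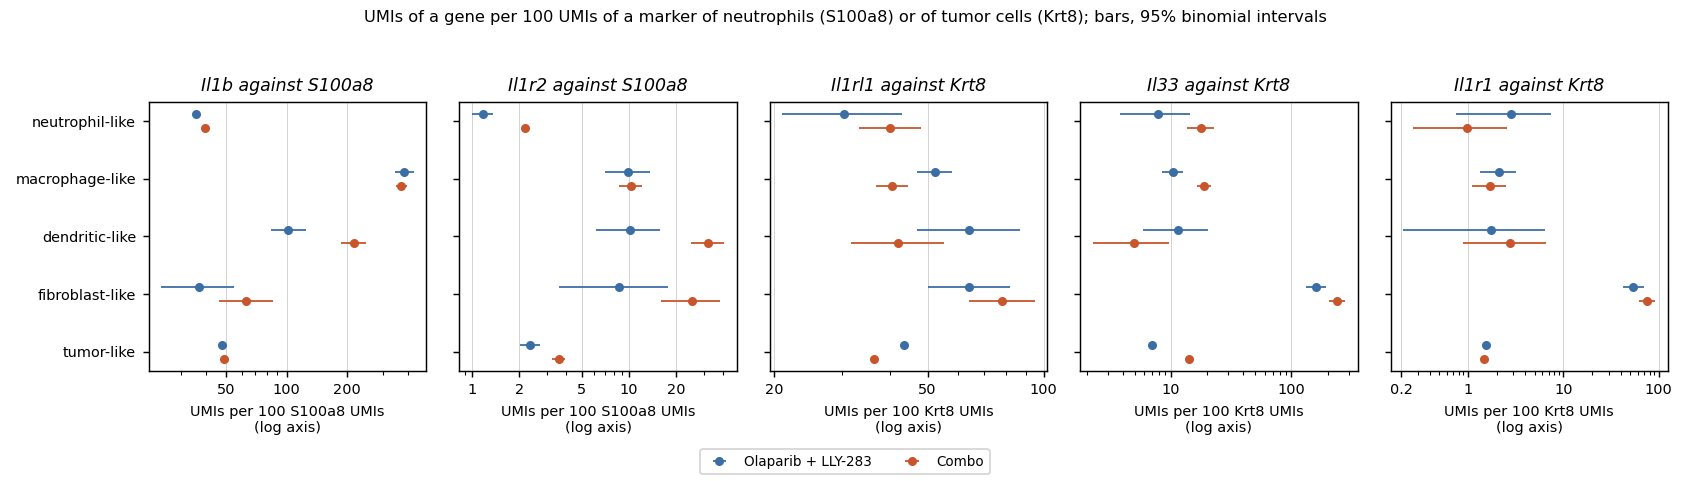
UMIs of 5 genes per 100 UMIs of S100a8, a neutrophil marker, or of Krt8, a tumor cell marker, in 5 classes (log axes), with 1 point per library and 95% binomial intervals as bars. Il1b per S100a8 is 383 and 371 in macrophage-like cells against 35.3 and 39.3 in neutrophil-like cells, and Il1rl1 per Krt8 lies between 30.3 and 78.0 in all 5 classes.

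Il1a, Il1b and Il1r2 are shown by sequence because all had their highest level in neutrophil-like cells and their starts can be compared. Each window runs from 250 bases before to 50 bases after a transcript start of RefSeq (build GRCm38.p6, the mm10 assembly), is written 5′ to 3′ on the strand of the gene, and has in capitals any match, on either strand, to one of 4 motifs. These were the TATA box, spelled TATAAA, the NF-kB type, spelled GGAANTTCC, the C/EBP type, spelled TTGCAA, and the AP-1 type, spelled TGANTCA, and no matches overlapped in the windows shown. Positions count from 0 at the start.
Il1b, chr2:129371090-129371389, minus strand: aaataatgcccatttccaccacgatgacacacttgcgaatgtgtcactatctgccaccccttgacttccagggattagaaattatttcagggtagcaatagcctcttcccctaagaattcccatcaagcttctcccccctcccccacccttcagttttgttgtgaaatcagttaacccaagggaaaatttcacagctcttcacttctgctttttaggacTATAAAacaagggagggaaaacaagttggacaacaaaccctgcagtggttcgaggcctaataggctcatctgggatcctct
Il1a, chr2:129309923-129310222, minus strand: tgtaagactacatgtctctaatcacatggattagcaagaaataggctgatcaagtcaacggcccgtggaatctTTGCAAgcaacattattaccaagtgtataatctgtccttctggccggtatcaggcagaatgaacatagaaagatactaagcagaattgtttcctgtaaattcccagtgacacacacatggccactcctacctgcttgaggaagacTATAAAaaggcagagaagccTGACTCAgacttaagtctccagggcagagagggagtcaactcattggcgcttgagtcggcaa
Il1r2, chr1:40085843-40086142, plus strand: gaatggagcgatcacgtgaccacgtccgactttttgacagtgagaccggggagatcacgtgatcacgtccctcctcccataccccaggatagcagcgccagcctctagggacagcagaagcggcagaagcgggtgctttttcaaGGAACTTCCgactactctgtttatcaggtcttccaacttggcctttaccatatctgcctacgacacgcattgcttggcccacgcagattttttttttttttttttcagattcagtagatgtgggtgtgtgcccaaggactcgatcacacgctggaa
Il1a and Il1b are neighbours on chromosome 2, both on the minus strand and 54.6 kb apart, and both windows held TATAAA at nearly the same place, at position -32 in Il1a and -31 in Il1b. TATAAA occurs in 13.6% of the 32851 promoter windows of the table. Il1a also held TTGCAA at position -177 and TGACTCA at -12, motifs found in 6.23% and 7.81% of all windows. The Il1r2 window held no TATAAA but GGAACTTCC at position -106, a form found in 0.928% of all windows. A match is a description of letters and not of a bound site, and counts from the 3′ end of transcripts do not show which start was used.

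Il1a, the second interleukin-1 ligand, was sparse. Neutrophil-like cells held 13 UMIs in Olaparib + LLY-283 and 145 in Combo, or 32.7 CPM (17.4 to 55.9) and 68.7 CPM (58.0 to 80.9). The next class was the macrophage-like class, with 22.2 and 17.4 CPM, and tumor-like cells had 0.316 and 0.416 CPM. Of the 13 UMIs in Olaparib + LLY-283, 53.8% lay in 5 cells. When the 5 cells with the most Il1a UMIs were left out of each class, and also when all cells were weighted equally, neutrophil-like cells no longer had the highest Il1a in both libraries.

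Il1rn, the receptor antagonist, had its highest levels in neutrophil-like and macrophage-like cells. It reached 633 CPM (557 to 716) and 681 CPM (646 to 717) in neutrophil-like cells, and 176 CPM (163 to 190) and 221 CPM (212 to 231) in macrophage-like cells. Of all Il1rn UMIs in assigned cells, tumor-like cells, the most numerous, held 50.8% and 19.3%, macrophage-like cells 34.5% and 47.0%, and neutrophil-like cells 13.4% and 32.4%. In macrophage-like cells Il1rn stood at 157 and 142 UMIs per 100 S100a8 UMIs against 1.81 and 1.56 in neutrophil-like cells. Tumor-like cells had only 7.03 and 6.03 CPM of Il1rn, yet 12.4 and 7.80 per 100 S100a8 UMIs and 54.8 and 39.8 per 100 UMIs of C1qa, a macrophage gene. In macrophage-like cells it was 8.86 and 9.48 per 100 C1qa UMIs, and in neutrophil-like cells 1326 and 1528, from only 19 and 94 C1qa UMIs. For both markers the ratios in tumor-like cells thus lay between those of these 2 classes. The source of the Il1rn UMIs in tumor-like cells was not tested.

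Nlrp3, the inflammasome sensor, also had its highest levels in the myeloid classes. Neutrophil-like cells had 397 CPM (338 to 464) and 604 CPM (572 to 639), which was 6.75 and 7.83 times the level in macrophage-like cells at 58.8 and 77.2 CPM. Fibroblast-like cells held 3 UMIs and 1 UMI, and tumor-like cells were at 1.49 and 2.06 CPM. The share of neutrophil-like cells with a Nlrp3 UMI at 500 UMIs was 15.7% and 22.8%.

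Within the neutrophil set, Il18 was the gene with nearly all of its UMIs in tumor-like cells. That class held 135918206 and 141892546 UMIs of all genes. Among the other assigned cells, macrophage-like cells held 3690693 and 9408857 UMIs, fibroblast-like cells 934463 and 1316883, and neutrophil-like cells 397956 and 2109465. The whole libraries held 147214934 and 162522700 UMIs. These totals also count mixed, uncertain and filtered cells, which the shares of a gene leave out, so they are not the base of those shares. A large share of UMIs in tumor-like cells therefore does not mark a gene as particular to them. The CPM of Il18 in neutrophil-like cells was 50.3 (30.7 to 77.6) and 50.7 (41.6 to 61.3), from 20 and 107 UMIs. Tumor-like cells had 14.0 CPM (13.4 to 14.7) and 24.1 CPM (23.3 to 24.9), and with 1906 and 3418 UMIs they held 94.8% and 90.2% of all Il18 UMIs in assigned cells. Per 100 UMIs of Krt8, neutrophil-like cells had 14.1 and 26.4 Il18 UMIs and tumor-like cells 1.76 and 3.03.

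The receptors that bind interleukin-1 were split between classes. Il1r1, the chain that passes the signal on, was highest in fibroblast-like cells at 102 CPM (82.3 to 124) and 139 CPM (120 to 161). Tumor-like cells had 12.3 CPM (11.7 to 12.9) and 11.7 CPM (11.2 to 12.3). Endothelial-like cells had 13.4 CPM in Olaparib + LLY-283, from 2 UMIs, and 0 UMIs in Combo. Neutrophil-like cells held 4 Il1r1 UMIs in each library, or 10.1 CPM (2.74 to 25.7) and 1.90 CPM (0.517 to 4.86). After thinning to 1000 UMIs, 10.1% (6.25 to 15.1%) and 12.3% (4.53 to 24.3%) of fibroblast-like cells had an Il1r1 UMI, against 1.38% and 1.37% of tumor-like cells. Per 100 UMIs of the collagen gene Col3a1, tumor-like cells had 2.71 and 2.79 Il1r1 UMIs and fibroblast-like cells 0.406 and 0.606. Col3a1 itself stood at 455 and 421 CPM in tumor-like cells, so this ratio does not separate the sources of the Il1r1 UMIs.

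Il1r2, the decoy receptor, stood in neutrophil-like cells at 410 CPM (349 to 478) and 941 CPM (900 to 983). Dendritic-like cells came next with 77.9 CPM (48.2 to 119) and 171 CPM (138 to 209), and macrophage-like cells had 11.1 and 16.0 CPM. Neutrophil-like cells held 39.4% and 74.8% of its UMIs and tumor-like cells 43.5% and 14.7%, at a level of 1.32 and 2.75 CPM. The level of the decoy receptor in neutrophil-like cells was thus far above that of Il1r1 in both libraries. Il1rap, the accessory chain of both Il1r1 and Il1rl1, was also highest in neutrophil-like cells, at 193 CPM (153 to 242) and 272 CPM (250 to 295). Its level was 11.8 and 27.3 CPM in fibroblast-like cells, 10.6 and 13.8 CPM in macrophage-like cells and 4.8 and 6.0 CPM in tumor-like cells, which still held 83.2% and 53.1% of all Il1rap UMIs. Fibroblast-like cells, where Il1r1 was highest, and tumor-like cells, which held most Il1rl1 UMIs, thus had lower levels of the accessory chain than neutrophil-like cells. Fibroblast-like cells still had the second highest Il1rap CPM of the 9 classes in Combo, from 36 UMIs.

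Il1rl1, which encodes the IL-33 receptor ST2, had most of its UMIs in tumor-like cells, the class with most UMIs of all genes. Tumor-like cells had 346 CPM (343 to 349) in Olaparib + LLY-283 and 289 CPM (286 to 292) in Combo. With 47058 and 40974 UMIs they held 98.2% and 97.4% of its UMIs in assigned cells. A UMI of Il1rl1 was found in 27.3% (26.5 to 28.1%) and 22.0% (20.5 to 23.5%) of tumor-like cells thinned to 1000 UMIs. Neutrophil-like, macrophage-like, dendritic-like and fibroblast-like cells also had Il1rl1, between 65.4 CPM and 271 CPM, so its UMIs were set against those of Krt8, an abundant keratin gene of the tumor cells. Tumor-like cells had 43.5 and 36.3 Il1rl1 UMIs per 100 Krt8 UMIs, neutrophil-like cells 30.3 (21.0 to 42.9) and 40.0 (33.1 to 48.1), and macrophage-like cells 52.2 (47.1 to 57.8) and 40.5 (36.8 to 44.5). The ratio was higher in fibroblast-like cells, at 64.0 (50.0 to 81.6) and 78.0 (64.1 to 94.8), and in dendritic-like cells it was 64.0 (47.1 to 86.7) and 42.0 (31.7 to 55.2). In fibroblast-like and macrophage-like cells the interval lay above that of tumor-like cells in both libraries. For macrophage-like cells in Combo this was narrow, with a lower limit of 36.81 against an upper limit of 36.71 in tumor-like cells. In dendritic-like cells it did so in Olaparib + LLY-283 only, and in neutrophil-like cells in neither. At 500 UMIs, 5.17% and 3.99% of neutrophil-like cells had an Il1rl1 UMI, against 15.6% and 12.3% of tumor-like cells.

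In 2 small classes Il1rl1 went with other values. Endothelial-like cells of Olaparib + LLY-283 had 395 CPM, or 118 UMIs per 100 Krt8 UMIs, but 88.1% of their 59 UMIs lay in 5 cells, and in Combo the class held 3 UMIs. Mast-like cells, known carriers of ST2, held 1 and 15 Il1rl1 UMIs, which is 1271 CPM in Combo, with 0 and 2 UMIs of Krt8, over 6 cells in each library.

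Il33, the ligand of ST2, was highest per UMI in fibroblast-like cells, with 302 CPM (268 to 339) and 438 CPM (403 to 475). Tumor-like cells had 55.4 CPM (54.2 to 56.7) and 113 CPM (111 to 115), and since they were far more numerous they held 94.6% and 94.4% of all Il33 UMIs. The share of cells with an Il33 UMI at 1000 UMIs was 24.8% (18.8 to 31.2%) and 27.5% (16.2 to 42.5%) in fibroblast-like cells and 5.19% (4.81 to 5.60%) and 9.51% (8.48 to 10.6%) in tumor-like cells. In fibroblast-like cells of Combo 47.5% of the Il33 UMIs lay in 5 cells. Per 100 UMIs of Col3a1, tumor-like cells had 12.2 and 26.9 Il33 UMIs against 1.21 and 1.91 in fibroblast-like cells. Col3a1 is a marker that assigned fibroblast-like cells and stood at 455 and 421 CPM in tumor-like cells. This ratio therefore does not separate the sources of the Il33 UMIs. Neutrophil-like cells had 27.6 and 34.1 CPM of Il33, from 11 and 72 UMIs, or 7.75 (3.78 to 14.3) and 17.8 (13.6 to 22.9) Il33 UMIs per 100 Krt8 UMIs, and tumor-like cells had 6.97 and 14.2.

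Il33 and Il1rl1, ligand and receptor, were in part found in the same tumor-like cells. At 1000 UMIs per cell, 226 of 655 cells with an Il33 UMI in Olaparib + LLY-283 also had an Il1rl1 UMI, which is 34.5% against 27.3% of all 12611 cells. In Combo it was 80 of 280 cells, or 28.6% against 22.4% of all 2976 cells. These are counts within 1 library each and are given as a description.

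Both genes have more than 1 start in RefSeq, and all 4 windows are shown because ligand and receptor shared the tumor-like cells. The windows and capitals are as above. The starts of Il1rl1 are known to give a soluble and a membrane-bound form of ST2, which are not separated by counts per gene.
Il33, first start, chr19:29924863-29925162, plus strand: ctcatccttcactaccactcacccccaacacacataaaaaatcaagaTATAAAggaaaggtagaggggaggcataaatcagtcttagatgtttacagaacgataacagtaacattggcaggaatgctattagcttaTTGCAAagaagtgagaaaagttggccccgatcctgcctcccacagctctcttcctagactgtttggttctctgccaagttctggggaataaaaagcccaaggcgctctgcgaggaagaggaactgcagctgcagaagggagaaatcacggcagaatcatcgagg
Il33, second start, chr19:29945540-29945839, plus strand: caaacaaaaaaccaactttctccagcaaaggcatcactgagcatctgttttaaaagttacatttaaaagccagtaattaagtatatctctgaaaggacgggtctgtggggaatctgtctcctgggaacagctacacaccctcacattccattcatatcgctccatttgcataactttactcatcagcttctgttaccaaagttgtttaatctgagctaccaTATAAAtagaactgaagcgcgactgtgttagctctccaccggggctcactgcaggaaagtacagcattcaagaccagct
Il1rl1, first start, chr1:40429320-40429619, plus strand: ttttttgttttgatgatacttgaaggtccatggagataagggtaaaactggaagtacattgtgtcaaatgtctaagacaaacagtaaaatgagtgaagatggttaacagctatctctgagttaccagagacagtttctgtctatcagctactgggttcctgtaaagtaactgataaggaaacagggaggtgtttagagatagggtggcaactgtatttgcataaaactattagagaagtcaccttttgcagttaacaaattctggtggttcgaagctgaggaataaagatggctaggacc
Il1rl1, second start, chr1:40439379-40439678, plus strand: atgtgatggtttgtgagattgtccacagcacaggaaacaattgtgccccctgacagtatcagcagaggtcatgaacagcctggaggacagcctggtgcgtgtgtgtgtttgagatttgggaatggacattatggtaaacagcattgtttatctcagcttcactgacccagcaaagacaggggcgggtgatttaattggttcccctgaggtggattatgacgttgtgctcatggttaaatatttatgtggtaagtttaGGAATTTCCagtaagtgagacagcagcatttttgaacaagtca
Il33 held TATAAA in both windows, at position -203 at its first start and at -29 at its second, where it lies near the usual place of a TATA box, and TTGCAA at -114 at the first start. The first Il1rl1 window held none of the 4 motifs, and the second held GGAATTTCC at position 7.

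The receptor genes lie side by side on chromosome 1 and still differed in the class that carried them. Over 478 kb of mm10, from 40074079 to 40551705, stand Il1r2, Il1r1, Il1rl2, Il1rl1, Il18r1 and Il18rap, all on the plus strand. In this order Il1r2 was highest in neutrophil-like cells and Il1r1 in fibroblast-like cells. Il1rl2, the receptor for the IL-36 cytokines, stood at 35.3 and 41.8 CPM in fibroblast-like cells and at 1.58 and 1.51 CPM in tumor-like cells, whereas Il1rl1 beside it was at 346 and 289 CPM there. Il18r1, the binding chain for interleukin-18, stood at 86.2 and 163 CPM in T/NK-like cells and at 7.54 and 4.74 CPM in neutrophil-like cells. Il18rap, its partner chain, stood at 75.4 and 163 CPM in T/NK-like cells and at 141 and 187 CPM in neutrophil-like cells. The T/NK-like class held only 92834 and 338439 UMIs of all genes. Its levels of Il18r1 and Il18rap in Olaparib + LLY-283 thus rest on few UMIs, and nothing is read from their difference between the libraries. The annotated spans of these 6 genes do not overlap.

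**Figure D3:**
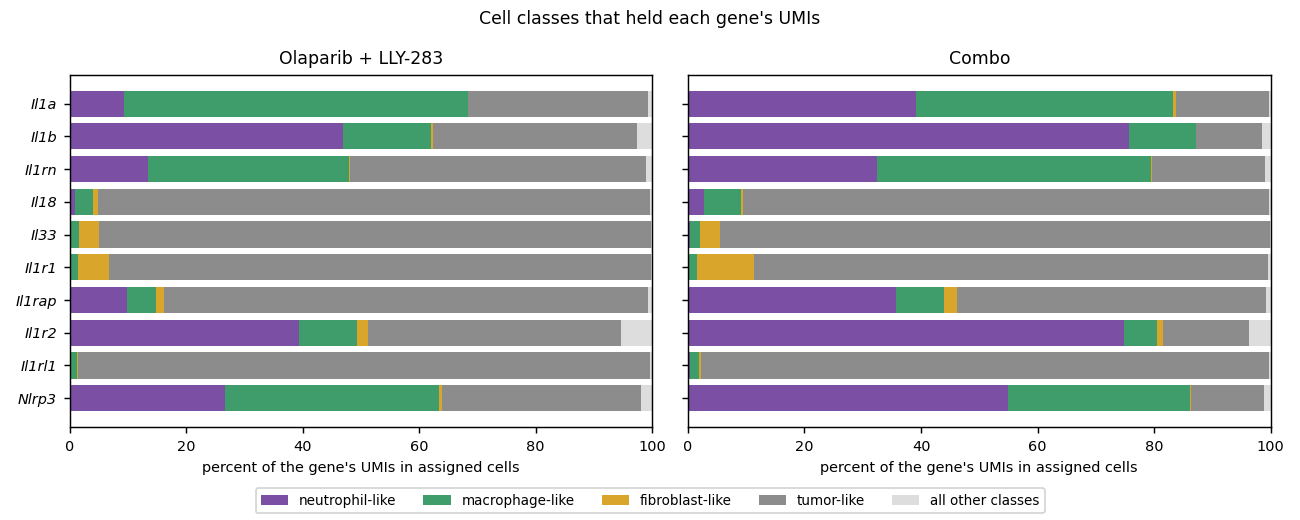
Percent of the UMIs of each gene, over assigned cells, that lay in each cell class, with 1 panel per library. Tumor-like cells, which held most UMIs of all genes, held over 88% of the UMIs of Il18, Il33, Il1r1 and Il1rl1 in both libraries. Neutrophil-like cells held 47.0% and 75.7% of those of Il1b.

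The comparison of the 2 libraries asks how the levels stood with and without the anti-PD-1 antibody on top of both drugs. A gene was counted when its CPM in a class was past 2-fold between the libraries, among genes with at least 50 UMIs in that class. The median ratio of all genes stayed within 0.06 of 0 on the log2 scale in each of the 9 classes. In neutrophil-like cells, 2 of 9 genes were over 2-fold higher in Combo, beside 8.95% of all 4568 genes, and 0 of 9 were lower, beside 4.23%. In macrophage-like cells 0 of 9 were higher, beside 1.77%, and 1 of 9 was lower, beside 2.96%. In fibroblast-like cells 0 of 4 were higher or lower, beside 1.41% and 0.785%. In tumor-like cells 2 of 10 were higher, beside 1.39% of all 15407 genes, and 0 of 10 were lower, beside 0.798%. Dendritic-like cells had 1 of 4 higher, beside 7.9%, and 0 of 4 lower, beside 2.26%. Endothelial-like cells had 1 gene with enough UMIs, which was lower, beside 6.96% of all genes lower and 9.87% higher. Il1a in neutrophil-like cells (13 and 145 UMIs) and Il1r2 in dendritic-like cells (21 and 93) reached 50 UMIs through Combo, where they were high. Il1rl1 in endothelial-like cells (59 and 3) reached it through Olaparib + LLY-283. Nothing is read from these calls.

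**Figure D4:**
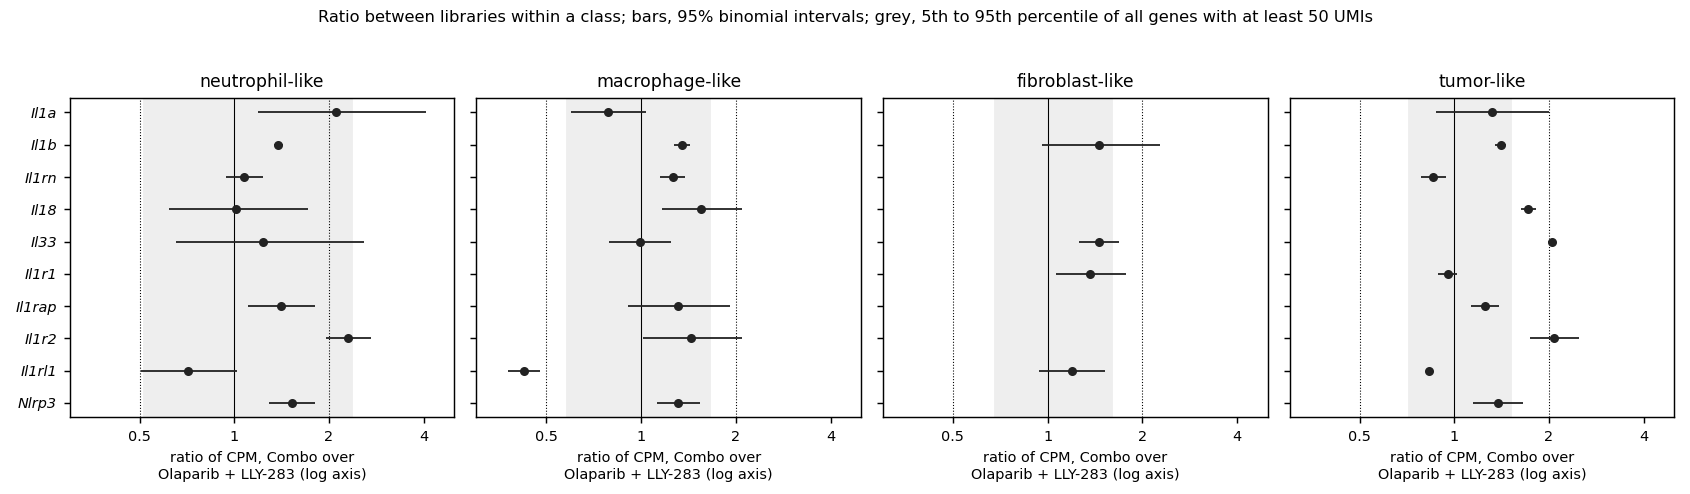
Ratio of CPM, Combo over Olaparib + LLY-283 (log axis), for the genes with at least 50 UMIs in each of 4 classes, with 95% binomial intervals as bars. The grey band spans the 5th to the 95th percentile of all genes, and dotted lines mark 2-fold. Il1r2 in neutrophil-like cells is at 2.30, Il33 in tumor-like cells at 2.04 and Il1rl1 in macrophage-like cells at 0.425.

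Il1r2 was the gene of neutrophil-like cells with the largest ratio, 2.30 (conditional binomial 95% interval 1.96 to 2.71). The share of neutrophil-like cells with an Il1r2 UMI at 500 UMIs was 16.7% in Olaparib + LLY-283 and 31.2% in Combo, a difference of 14.5 percentage points (10.3 to 18.6, Newcombe interval). The ratio of Il1a was 2.10 (1.19 to 4.05) from 13 and 145 UMIs. Nlrp3 had a ratio of 1.52 (1.29 to 1.81), Il1rap 1.41 (1.11 to 1.81) and Il1b 1.38 (1.34 to 1.42), and these ratios, like those of Il1r2 and Il1a, lay between the 5th and the 95th percentile of all genes of this class, at 0.515 and 2.37. Il1rn stood at 1.08 (0.940 to 1.23). Il1b and the decoy receptor thus both had intervals above 1 and the antagonist did not. The ratio of Il1r2 exceeded that of Il1b without overlap of the intervals. With mixed cells kept in the class with the higher score, the ratios were 1.45 for Il1rn, 1.84 for Il1b and 3.05 for Il1r2. The value of Il1rn then lay above its interval, so its contrast with Il1b depends on how mixed cells are handled. S100a8 had a ratio of 1.24 in the same cells. The median depth was 646 against 2007 UMIs, and no barcode of either library had under 500 UMIs. Neutrophil-like cells of Olaparib + LLY-283 thus lay close to that limit, and shallower ones would not be in the data. The part of depth in these ratios was not tested.

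In tumor-like cells, Il33 had a ratio of 2.04 (1.99 to 2.10), above the 95th percentile of all genes at 1.51. Its share of cells at 1000 UMIs was 4.32 percentage points higher in Combo (3.24 to 5.48). With each cell weighted equally the ratio was 1.99, and with scaling by the median ratio of all genes it was 1.96, so that the count past 2-fold loses it under both. Il18 also lay above that percentile, with a ratio of 1.72 (1.62 to 1.82) and a difference in share of 0.994 percentage points (0.469 to 1.65). Il1r2 passed 2-fold in tumor-like cells with 2.08 (1.74 to 2.49), at 1.32 and 2.75 CPM, and had there 2.35 (2.01 to 2.72) and 3.56 (3.21 to 3.94) UMIs per 100 S100a8 UMIs, above the 1.17 (0.996 to 1.36) and 2.16 (2.07 to 2.26) of neutrophil-like cells. Il1rl1 was lower in Combo, with a ratio of 0.834 (0.823 to 0.845) and a difference in share of -5.33 percentage points (-6.97 to -3.61), while Krt8 had a ratio of 1.00. Without thinning the share of tumor-like cells with an Il1rl1 UMI was 79.2% and 87.5%, the opposite order, at median depths of 8746 and 45689 UMIs.

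In fibroblast-like cells 4 genes had at least 50 UMIs, and none of their directions held under all alternatives except that of Il1r1. Il33 stood at 1.45 (1.26 to 1.68) and Il1r1 at 1.37 (1.06 to 1.77), with 209 cells in Olaparib + LLY-283 against 71 in Combo. The shares of cells at 1000 UMIs differed by 2.75 percentage points for Il33 (-8.96 to 18.1) and 2.19 for Il1r1 (-6.14 to 14.2), with intervals over cells that include 0. With each cell weighted equally the ratio of Il33 was 0.928 and that of Il1r1 1.08, and without the 5 cells with the most Il33 UMIs in each library that of Il33 was 1.01. Il1b had a ratio of 1.46 (0.957 to 2.27), or 0.981 with cells weighted equally. Il1rl1 had 1.19 (0.938 to 1.52), or 0.859 without the 5 cells with the most of its UMIs and 0.938 with mixed cells kept in the class.

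In macrophage-like cells, Il1b had a ratio of 1.35 (1.28 to 1.43), Nlrp3 1.31 (1.13 to 1.53) and Il1rn 1.26 (1.15 to 1.38). Their shares at 1000 UMIs differed by 2.80 (-1.45 to 7.04), 1.98 (-0.631 to 4.58) and 0.667 (-2.96 to 4.38) percentage points, all with intervals that include 0. Il1rl1 was lower in Combo, with 154 and 65.4 CPM and a ratio of 0.425 (0.378 to 0.477). Krt8, the tumor cell gene, had a ratio of 0.548 (0.506 to 0.593) in the same cells, at 295 and 161 CPM, and the part of tumor cell RNA in the Il1rl1 value was not tested. With each cell weighted equally the Il1rl1 ratio was 0.725.

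In dendritic-like cells, with 58 and 36 cells, Il1b had 783 and 1145 CPM and Il1r2 77.9 and 171 CPM. Il1r2 was the gene past 2-fold, with 21 and 93 UMIs, of which 71.4% and 53.8% lay in 5 cells.

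Neutrophil-like cells were not uniform in these genes. In Combo, 625 cells thinned to 1000 UMIs had a UMI of the chemokine genes Ccl3 or Ccl4 and 341 had none, a split chosen after values had been seen. Cells with such a UMI had 853 Il1rn UMIs per 1000 cells (782 to 928) against 437 (370 to 513), 698 Nlrp3 UMIs (634 to 766) against 396 (332 to 469), and 97.6 Il1a UMIs (74.7 to 125) against 20.5 (8.25 to 42.3). The decoy receptor ran the other way, with 813 Il1r2 UMIs per 1000 cells (744 to 887) against 1155 (1044 to 1275). Il1b was at 16418 and 18352 UMIs per 1000 cells, and Il1rap at 264 and 284 with overlapping intervals.

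The other genes of the pathway came from 5 lists with 66 genes, of which 64 were found in the files. Of the other ligands and binding proteins, Il1f9, which encodes the cytokine IL-36 gamma, stood at 251 and 305 CPM in neutrophil-like cells. In tumor-like cells it stood at 0.692 and 0.705 CPM. Il1f8, Il1f10, Il1rapl1 and Il1rapl2 had 0 UMIs. Of these ligands and the other receptor chains, 0 to 4 genes per list had at least 50 UMIs in each of the 4 main classes. None of those passed 2-fold, beside 1.39% to 8.95% of all genes higher and 0.785% to 4.23% lower in these classes.

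Among the receptor signalling genes, 5 of the 16 with at least 50 UMIs were over 2-fold higher in Combo in neutrophil-like cells, where 8.95% of all genes were. They were the adaptor Myd88, the kinases Irak4 and Ikbkb, the inhibitory kinase homologue Irak3 and the NF-kB subunit Relb, all named after their values were seen, with 2 to 9 UMIs each in Olaparib + LLY-283 and 53 to 103 in Combo. All 5 reached 50 UMIs through Combo alone, where they were high, so nothing is read from this count. The genes with the most UMIs of the list were less far apart. Nfkbia, an inhibitor of NF-kB that is itself switched on by it, stood at 3000 and 3545 CPM, and Nfkbiz at 442 and 700 CPM. In macrophage-like cells 1 of 20 was higher, beside 1.77% of all genes. In fibroblast-like cells it was 0 of 15, beside 1.41%, and in tumor-like cells 0 of 20, beside 1.39%. The 1 in macrophage-like cells was Irak3, with 30 and 163 UMIs, which also reached 50 UMIs through Combo.

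Among the inflammasome genes, 2 of 9 were higher in neutrophil-like cells, beside 8.95% of all genes. These were the sensor Mefv at 37.7 and 89.1 CPM and Txnip at 131 and 383 CPM. Mefv held 15 UMIs in Olaparib + LLY-283 and 188 in Combo, so its place in the count rests on Combo. Nothing is read from the call of Mefv. Txnip held 52 and 807 UMIs. Casp1, the protease that cuts the precursors of interleukin-1 beta and interleukin-18, stood at 58.6 and 83.1 CPM in tumor-like cells with a ratio of 1.42 (1.38 to 1.46). Gsdmd, whose product forms the pore for release, was at 37.5 and 44.7 CPM there. In macrophage-like cells 2 of 16 were higher, beside 1.77% of all genes. They were the sensors Nlrc4 and Nlrp1b, with 6 and 4 UMIs in Olaparib + LLY-283 and 55 and 47 in Combo, so that their place in the count rests on Combo. These genes were named after their values were seen. In fibroblast-like and tumor-like cells 0 of 9 and 0 of 15 were higher, beside 1.41% and 1.39% of all genes.

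The list of genes known to answer interleukin-1 had 2 of 11 over 2-fold higher in fibroblast-like cells, where 1.41% of all genes were. These were Saa3, an acute phase gene, at 235 and 944 CPM with a ratio of 4.01 (3.47 to 4.65), and the neutrophil chemokine gene Cxcl5, at 94.2 and 210 CPM with a ratio of 2.23 (1.75 to 2.87), both named after their values were seen. The chemokine genes Cxcl1 and Ccl2 had ratios of 1.30 (1.14 to 1.48) and 1.95 (1.69 to 2.26), and Ptgs2, which encodes a prostaglandin synthase, 0.796 (0.664 to 0.954). In neutrophil-like cells 2 of 10 were higher, beside 8.95% of all genes. They were Saa3 and Nos2, with 5 and 2 UMIs in Olaparib + LLY-283 and 171 and 58 in Combo. In macrophage-like cells it was 1 of 12, Lcn2, beside 1.77%, and in tumor-like cells 1 of 14, Nos2 at 4.58 and 11.2 CPM, beside 1.39%. Saa3 and Nos2 in neutrophil-like cells, and Lcn2 in macrophage-like cells with 6 and 53 UMIs, reached 50 UMIs through Combo. Nothing is read from these calls. Lists this short do not set such counts apart from the share of all genes. Of the genes of the 5 lists that had at least 50 UMIs in a class, none was over 2-fold lower in these 4 classes. Of all genes, 4.23% were lower in neutrophil-like, 2.96% in macrophage-like, 0.785% in fibroblast-like and 0.798% in tumor-like cells. Nothing is read from this count either.

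The genes whose pattern was most like that of each of the 10 were taken over the 18 values of 9 classes in 2 libraries, by Pearson correlation of log2(CPM + 10), among 11560 genes with at least 500 UMIs. The 2 values of a class share its cells' type and the values of a library share its depth, so r is a description with no test. Il1b was most like Ccrl2 (r = 0.958), Clec7a and Cxcl2, and Il1rn most like Lrrfip2 (r = 0.961), Ccrl2 and Cd33. Il1a was most like Fpr2 (r = 0.966), Tlr4 and Clec4d, and Nlrp3 most like Arg2 (r = 0.987), AC166102.1 and Gm5150. Il1rap was most like Rab44 (r = 0.942), Hcar2 and Cxcr2, and Il1r2 most like Mcemp1 (r = 0.930), Gm17971 and Rab11fip1. Cd33, Hcar2 and Cxcr2 are among the markers that assigned neutrophil-like cells, so their pattern follows in part from the rule. Outside the neutrophil set, Il1r1 was most like Egfr (r = 0.986), Dcbld2 and Tgfbr3, and Il33 most like Loxl3 (r = 0.950), Lox and Medag. Il18 had the weakest match, with Ell (r = 0.897), Gm6977 and Per1, and Il1rl1 was most like Ccdc34 (r = 0.924), Znhit6 and Tmem183a.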

How the data were processed

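Single-cell RNA sequencing with the 10x Genomics 3′ chemistry was read from the count matrices of 2 libraries, which the authors deposited as UMI counts per gene and cell, without normalization. The header of the matrices names Cell Ranger 6.1.2, the paper's methods name a later version, and the reference was mm10. All 55450 gene identifiers are in GENCODE M21, from which gene positions were taken. The libraries held 147214934 and 162522700 UMIs.

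The 10 genes and all lists were chosen with earlier results of these data known, and the rule that assigns cells was fixed with the values in view. The cell filter asked for 200 genes or more and for mitochondrial UMIs below 20%. Seed cells had at least 3 raised markers of a class (2 for rare classes, 4 for muscle), a raised marker being over 3 times the mean of all cells with at least 2 UMIs. Tumor seeds had at least 3 Krt8 and 1 Krt18 UMIs and no raised marker of another class. Each cell then took the class with the highest multinomial likelihood of its marker UMIs, scaled to at most 2000 UMIs. A margin under 2 log units made it uncertain, and a mixture of 2 classes better by over 5 made it mixed, and no other doublet caller was run.

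UMIs were summed per class and given as CPM with exact Poisson intervals. Intervals at 95% are exact conditional binomial for ratios, exact Clopper-Pearson for shares and Newcombe for their differences. PCR copies are removed by UMIs, and the intervals cover counting error only. Thinned shares are expected values, except where 2 genes were counted in the same cells, which used 1 random draw. Named genes were all 10, up to 4 genes per pathway list and class with the most UMIs, and the 3 most alike genes for each of the 10. Genes of the lists past 2-fold in a main class were named as well, whatever their rank by UMIs, and were picked after their values were seen. The receptor genes beside Il1r1 on chromosome 1 were also named. Procedures were tested on simulated counts. Alternatives changed the filter, the assignment, mixed cells, the weighting of cells, the deepest cells, the thinning, the UMI minimum and the scaling. Tools were matplotlib 3.10.9, pandas 2.3.3, numpy 2.4.6 and scipy 1.17.1 under Python 3.11.15.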

Additional observations from a re-analysis of the deposited data

Results flagged for a closer look

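Cells with 20% or more mitochondrial UMIs were outside the comparisons and still held UMIs of these genes above the limit that a count of 0 allows. In the 86 such cells of Olaparib + LLY-283, Il1b stood at 1133 CPM, Il1rl1 at 233 CPM, Il1rn and Il1rap at 100.0 CPM each, Il1r2 at 83.3 CPM and Nlrp3 at 66.7 CPM, from 4 to 68 UMIs each. In the 1586 such cells of Combo, Il1b stood at 616 CPM, Il1rl1 at 138 CPM, Il33 at 61.0 CPM, Il1rn at 40.9 CPM, Il1r2 at 25.8 CPM, Nlrp3 at 20.8 CPM, Il1rap at 15.8 CPM, Il18 at 15.1 CPM and Il1r1 at 7.89 CPM. These cells were not assigned to classes here.

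The ratio of Il1rn between the libraries ran in opposite directions in 2 classes, with 1.26 in macrophage-like cells and 0.858 in tumor-like cells, each with an interval that excludes 1. With each cell weighted equally the ratio in tumor-like cells was 1.21, so that the opposite directions are lost. With 1 library per group, the difference between the classes was not tested.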

How the results depend on the processing

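The number of genes highest in neutrophil-like cells in both libraries was 6 or 7 under the 8 alternatives run for it, and 2 genes stayed highest in fibroblast-like cells. Summed over the 4 main classes, 4 values were over 2-fold higher in Combo and 1 was lower. Scaling by the median ratio of all genes left 2 higher, both in neutrophil-like cells. The number lower was 2 with no limit on mitochondrial UMIs and with at least 20 UMIs, 3 with mixed cells kept in the class with the higher score, and 0 with the mean of the CPM of single cells. Of the pathway genes, 16 values were over 2-fold higher and 0 lower, against 25 and 1 with the mean of the CPM of single cells. Without the 5 cells with the most UMIs of the gene, 4 were lower. Beside these stood 1.39% to 8.95% of all genes higher and 0.785% to 4.23% lower in the 4 classes. Nothing is read from these pathway counts. The difference in share of tumor-like cells with an Il1rl1 UMI was 8.32 percentage points with no thinning, opposite in sign to the thinned value. Of 288 ratios between libraries recomputed under the alternatives, 258 stayed within the counting interval of the reported value. Leaving out the barcodes found in both libraries and leaving out the 5 cells with the most UMIs of the gene were chosen after seeing the data. Thinning to 2000 UMIs could not be used for neutrophil-like cells, of which too few in Olaparib + LLY-283 were deep enough. No replicate could be left out. No paired analysis was possible because each group has 1 library. Depth limits Il1a, Il1rap and Nlrp3 outside the myeloid classes and all genes in the classes with under 100 cells.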
